A study of Saccharomyces cerevisiae with 3 samples.

Results

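The genes of mevalonate and ergosterol synthesis in baker's yeast are described here across 3 two-colour arrays. The list holds 31 genes, chosen by name from the pathway's known enzymes, their electron donors, the regulators of the pathway and the enzymes of sterol esterification. All 31 were on the array, among 5539 genes with a symbol, and each had 2 spots. On each array, the Cy3 channel held RNA of a yap1 deletion mutant and the Cy5 channel RNA of the wild type. Cells of both strains had been given 0.2 mM arsenite, As(III), for 1 h. The deleted gene encodes Yap1, a transcription factor of antioxidant defence and detoxification, and the question is how transcripts of the mutant and of the wild type compare under arsenite. No source used here gives the strain background, the construction of the deletion or the medium.

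Ergosterol is the main sterol of fungal membranes and holds the place that cholesterol has in animal cells. Acetyl-CoA is built up to mevalonate, whose production by HMG-CoA reductase is the main point of control, and then to farnesyl diphosphate, which also feeds prenylated proteins, ubiquinone and dolichol. Squalene synthase commits farnesyl diphosphate to sterols, and the steps from squalene on need oxygen, haem and NADPH. Upc2 and its paralog Ecm22 activate genes of the route when sterols are scarce, and azole and allylamine antifungals act on enzymes of this route.

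The deposited value is a log ratio of the channels of an array, and no source used here gives its base or its direction. The medians over genes were −2.11, −2.30 and −1.59 on replicates 1, 2 and 3, so every value below is the deposited log ratio minus the median of its array. In what follows, above and below refer to that median. Relative to the median gene, a gene above it had more transcript in the mutant if the ratio is mutant over wild type. If the ratio runs the other way, such a gene had relatively more in the wild type. As deposited, all 31 genes lay below 0 on every array, so sides of the median are not absolute differences between the strains. The deleted gene did not settle this: YAP1 lay at −1.43, −0.22 and −0.74 on the 3 arrays, below the median on all of them but near the middle of replicate 2. Its spots lay at −2.02 and −0.85 on replicate 1, −0.68 and 0.24 on replicate 2, and −1.29 and −0.20 on replicate 3. The YAP1 mean of −0.80 ± 0.61 (SD, n = 3) passed below the median (limma adjusted p = 0.0323). That call held by the first spot alone (−1.34, adjusted p = 0.011) and without replicate 2 (−1.09, adjusted p = 0.0101). With each print block centred on its own median it held too (−0.95, adjusted p = 0.0269), as with scaling to 1 spread and quantile normalization (adjusted p = 0.0365 and 0.0374). That call was lost by the last spot alone (−0.32, adjusted p = 0.452), with the trend in spot spread removed (−0.24, adjusted p = 0.562) and with a variance prior following spot spread (−0.80, adjusted p = 0.0672). Leaving out replicate 1 (−0.48, adjusted p = 0.226) or replicate 3 (−0.83, adjusted p = 0.197) lost it too, and against spot pairs with no gene symbol YAP1 stood at −0.0046 (adjusted p = 0.989). The dyes were not swapped on any array, so dye effects of a gene and differences between strains cannot be told apart. Whether separate cultures were used is not stated in the labels, and the spread behind the p-values may therefore be technical only.

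The genes of the pathway did not stand on 1 side. The mevalonate genes ERG10, ERG13 and MVD1, the squalene epoxidase gene ERG1 and the sterol methyltransferase gene ERG6 lay above the array median, while the sterol reductase genes ERG24 and ERG4 and the regulator gene UPC2 lay below it. By limma at an adjusted p under 0.05, 7 of the 31 genes passed above the median, where 16.0% of all genes tested did, and 3 passed below it, where 12.5% of all genes did. Together these are 32.3% of the 31 genes, close to the 28.5% of all genes that passed. Without replicate 3 the counts were 2 above and 1 below, and without replicate 2 they were 4 and 2. The median of their means was 0.16, beside −0.02 over all genes. On the separate arrays the median of the 31 genes was −0.05, 0.47 and 0.20, so the list as a whole stood at the array median on replicate 1. On all 3 arrays alike, 13 of the genes lay above (29.7% of all genes did) and 8 below (29.2% of all genes did). These 21 genes kept 1 side, as 58.9% of all genes did, and the other 10 went both ways.

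**Figure D1:**
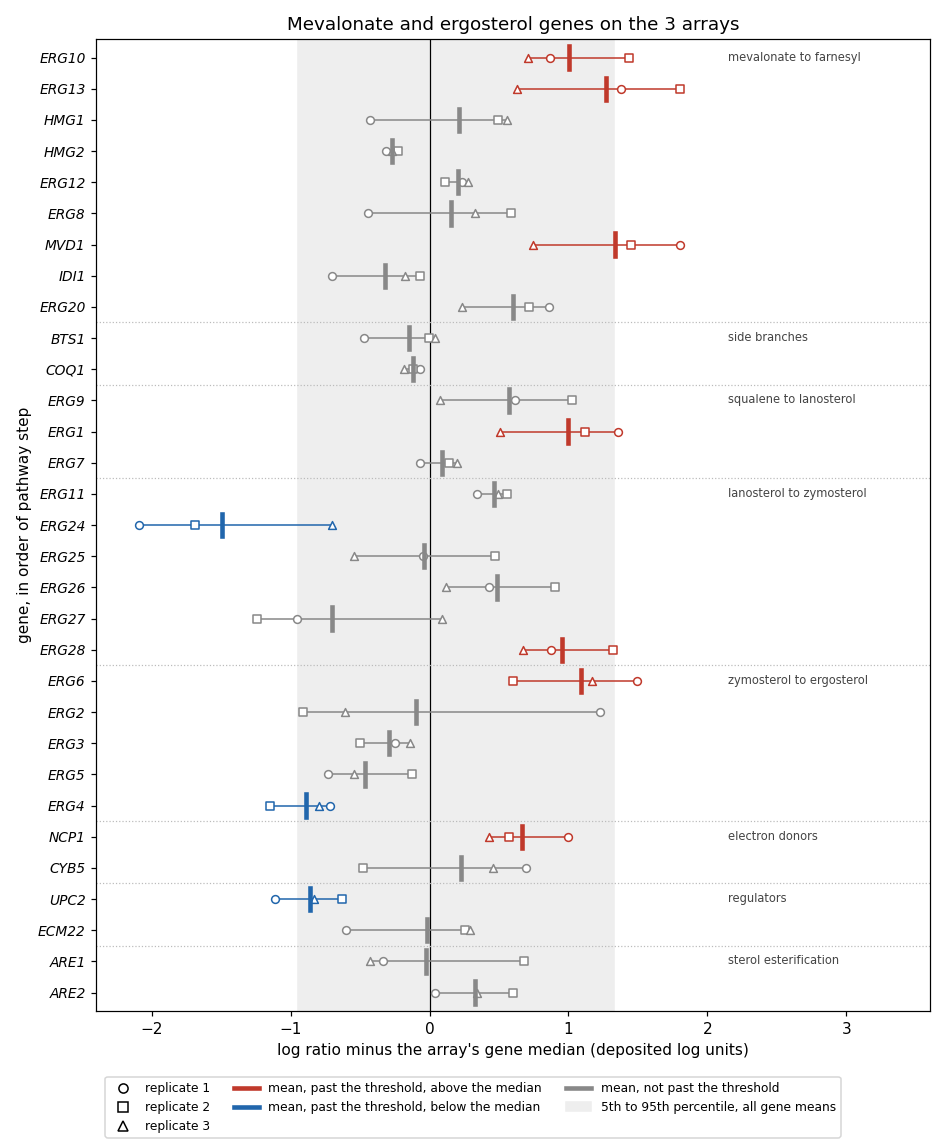
Centred log ratio (x axis, deposited log units) of the 31 genes in order of pathway step (y axis), with a symbol for each array, a line over their range and a bar at the mean; red (above) and blue (below) mark means with an adjusted p under 0.05, and the grey band spans the 5th to 95th percentile of all gene means. Of the genes past the threshold, 7 lie to the right and 3 to the left of the array median, and ERG2 spans both sides.

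In the stretch from acetyl-CoA to farnesyl diphosphate, 3 of 9 genes passed, all of them above the median. This count and those of the later stages rest on few genes each. They stand beside 16.0% of all genes that passed above and 12.5% that passed below. ERG10 (YPL028W), for the thiolase that joins acetyl-CoA units, lay at 0.87, 1.43 and 0.71 on replicates 1, 2 and 3 (mean 1.00 ± 0.38 SD, n = 3; limma adjusted p = 0.00658). It did not pass when replicate 2 (0.79, adjusted p = 0.085) or replicate 3 was left out (1.15, adjusted p = 0.0741). ERG13 (YML126C), the HMG-CoA synthase gene and the next step, lay at 1.38, 1.80 and 0.63 (mean 1.27 ± 0.59 SD, n = 3; limma adjusted p = 0.00222). Both genes stood high on every array, between the 85.5th and the 96.3rd percentile of all genes. MVD1 (YNR043W), for the decarboxylase that makes isopentenyl diphosphate, had the highest mean of the 31 genes. Its values were 1.80, 1.45 and 0.74 (mean 1.33 ± 0.54 SD, n = 3; limma adjusted p = 0.00144).

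The enzymes between them stood near the array median. HMG1 (YML075C), the HMG-CoA reductase gene that carries most of the activity in aerobic cells, lay at −0.43, 0.49 and 0.56 (mean 0.21 ± 0.55 SD, n = 3), on both sides of the median. HMG2 (YLR450W), its paralog, lay at −0.31, −0.23 and −0.27 (mean −0.27 ± 0.04 SD, n = 3), low on every array and with the narrowest range of the 31 genes. HMG1 minus HMG2 was −0.11, 0.72 and 0.83 on the 3 arrays, so the order of the pair differed between replicate 1 and the others. An exact sign permutation gave a two-sided p of 0.5 (n = 3), where 0.25 is the smallest that 3 arrays allow. The narrow range of HMG2 hid a wide split between its spots, with 1 spot at −0.80, −0.61 and −0.35 and the other at 0.17, 0.16 and −0.20. The print block that holds HMG1 had a median of 0.32, 0.73 and 0.34. With each print block centred on its own median, HMG1 had a mean of −0.23 and HMG2 one of −0.47. Neither passed (limma adjusted p = 0.48 and 0.11). Paralogs of similar sequence can take up each other's RNA on such spots, so single values of the HMG1 and HMG2, UPC2 and ECM22, and ARE1 and ARE2 pairs are uncertain.

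ERG12 (YMR208W), the mevalonate kinase gene, lay at 0.23, 0.11 and 0.28. ERG8 (YMR220W), the phosphomevalonate kinase gene between ERG12 and MVD1, lay at −0.44, 0.58 and 0.33. Neither kinase gene passed (limma adjusted p = 0.526 and 0.67), although MVD1, the gene of the next step, did. IDI1 (YPL117C), for the isomerase that supplies the allylic unit, lay at −0.70, −0.07 and −0.18 and did not pass. ERG20 (YJL167W), the farnesyl diphosphate synthase gene, lay at 0.86, 0.72 and 0.23 (mean 0.60 ± 0.33 SD, n = 3; limma adjusted p = 0.0691). It was high on all arrays without passing, and with each print block centred on its own median it passed (0.78, adjusted p = 0.0231).

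The prenyl synthases at the branch points were close to the median. BTS1 (YPL069C), whose product makes the geranylgeranyl group for protein prenylation, lay at −0.47, −0.01 and 0.04. COQ1 (YBR003W), which makes the side chain of ubiquinone, lay at −0.07, −0.12 and −0.18. The spots of COQ1 disagreed on replicates 1 and 2, with −0.57 against 0.44 and 0.58 against −0.81. Neither gene passed (limma adjusted p = 0.662 and 0.711).

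From squalene synthase to lanosterol, 1 of 3 genes passed, above the median. ERG9 (YHR190W), the squalene synthase gene, lay at 0.62, 1.03 and 0.08 (mean 0.57 ± 0.48 SD, n = 3; limma adjusted p = 0.0945). ERG1 (YGR175C), for squalene epoxidase, the target of terbinafine, lay at 1.36, 1.12 and 0.51 (mean 1.00 ± 0.44 SD, n = 3; limma adjusted p = 0.00764), and without replicate 3 it did not pass (1.24, adjusted p = 0.0592). ERG7 (YHR072W), for lanosterol synthase, lay at −0.07, 0.14 and 0.20 and did not pass. On each array ERG1 was the higher of ERG1 and ERG7, and on replicate 1 the distance was widest.

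Of the 6 genes that turn lanosterol into zymosterol, 1 passed above and 1 below the median. ERG11 (YHR007C), for the P450 demethylase that azole drugs block, lay at 0.34, 0.56 and 0.49 (mean 0.46 ± 0.11 SD, n = 3; limma adjusted p = 0.141), high on all arrays within a narrow range. The spots of ERG11 disagreed on replicate 1, at 0.99 and −0.31, and the SD between its spots was 0.46 on average. ERG24 (YNL280C), for the reductase of the next step, was the lowest of the 31 genes, at −2.10, −1.69 and −0.70 (mean −1.50 ± 0.72 SD, n = 3; limma adjusted p = 0.00102). On replicate 1 it stood at the 0.226th percentile of all genes and over the mean of the arrays at the 0.316th. Its spots differed widely, at −1.68 and −2.52 on replicate 1, −2.88 and −0.49 on replicate 2, and −0.60 and −0.80 on replicate 3, and all 6 values lay below the median. The SD between its spots was 0.81 on average, wider than in 98.7% of the genes.

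The 4 genes of the C-4 demethylation complex did not share a side. ERG28 (YER044C), whose product tethers the enzymes at the endoplasmic reticulum, lay at 0.87, 1.32 and 0.67 (mean 0.95 ± 0.33 SD, n = 3; limma adjusted p = 0.0081). Its call was lost without replicate 2 (0.77, adjusted p = 0.0934), without replicate 3 (1.10, adjusted p = 0.0754) and with the first spot only (0.88, adjusted p = 0.0566). ERG26 (YGL001C), for the decarboxylating dehydrogenase, followed at 0.43, 0.90 and 0.12, and did not pass. ERG25 (YGR060W), for the methyl sterol oxidase, lay at −0.05, 0.47 and −0.54. ERG27 (YLR100W), the keto reductase gene, lay at −0.96, −1.25 and 0.09 (mean −0.70 ± 0.70 SD, n = 3; limma adjusted p = 0.0628), low on replicates 1 and 2 and near the median on replicate 3. With the genes of widest spot spread left out of the fit, ERG27 passed below the median (−0.84, adjusted p = 0.0433). ERG28 was the highest and ERG26 the next on every array, while the lowest was ERG27 on replicates 1 and 2 and ERG25 on replicate 3.

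Among the 5 late genes, ERG6 passed above and ERG4 below the median. ERG6 (YML008C), for the methyltransferase that sets fungal sterols apart from cholesterol, lay at 1.49, 0.60 and 1.17 (mean 1.09 ± 0.45 SD, n = 3; limma adjusted p = 0.00451). Without replicate 3 it did not pass (1.05, adjusted p = 0.106). This gene neighbours the deleted YAP1, with only the short gene MIN4, which has no named spot here, between them in the RefSeq gene table of assembly R64. GIS4, the neighbour of YAP1 on its other side, lay below, at −1.39, −0.69 and −0.47 (mean −0.85 ± 0.48 SD, n = 3; limma adjusted p = 0.0197), so the genes that flank the deletion stood on opposite sides. GIS4 did not pass when replicate 1 (−0.58, adjusted p = 0.137) or replicate 3 was left out (−1.04, adjusted p = 0.0951). Its call was also lost with the first spot only (−0.91, adjusted p = 0.0642) and with print block medians removed (−0.65, adjusted p = 0.0701). Against spot pairs with no gene symbol GIS4 stood at −0.05 (adjusted p = 0.881). The part of the deletion in the value of ERG6 was not tested.

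ERG2 (YMR202W), for the sterol isomerase, was the most variable of the 31 genes. It lay at 1.22 on replicate 1 but at −0.91 on replicate 2 and −0.61 on replicate 3. The spots of each array were on the same side, at 1.43 and 1.02, at −0.56 and −1.27, and at −0.78 and −0.44, so the change of side was between arrays and not between spots. Its range over the arrays was 2.14, and 81 of the 5539 genes had a wider one. It was the only one of the 31 genes that was above the median on replicate 1 and below it on both other arrays, a pattern of 474 genes in all. Without replicate 1 its mean was −0.76, and it then passed (limma adjusted p = 0.0414), against −0.10 and an adjusted p of 0.84 over all arrays.

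ERG3 (YLR056W), the sterol desaturase gene, lay at −0.25, −0.50 and −0.14, with 1 spot at −0.69, −0.99 and −0.45 and the other at 0.18, −0.0037 and 0.17. ERG5 (YMR015C), the second P450 gene of the pathway, lay at −0.73, −0.13 and −0.54. It was below the other P450 gene, ERG11, on every array and did not pass (limma adjusted p = 0.149). ERG4 (YGL012W), for the reductase that makes ergosterol itself, lay at −0.72, −1.15 and −0.80 (mean −0.89 ± 0.23 SD, n = 3; limma adjusted p = 0.0105). It did not pass when replicate 2 (−0.76, adjusted p = 0.0997) or replicate 3 was left out (−0.93, adjusted p = 0.0972). All 6 spot values of ERG4 lay below the median, between −1.67 and −0.52.

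Of the electron donors and the esterification enzymes, 1 of 4 genes passed, above the median. NCP1 (YHR042W), for the reductase that feeds both P450 enzymes, lay at 0.99, 0.57 and 0.43 (mean 0.66 ± 0.29 SD, n = 3). It was high on every array, but its limma adjusted p of 0.0458 was the closest to the threshold among those of the 31 genes that passed. It was lost without replicate 1 (0.50, adjusted p = 0.208), without replicate 2 (0.71, adjusted p = 0.132) and without replicate 3 (0.78, adjusted p = 0.132). It was also lost with the first spot only (0.80, adjusted p = 0.0566), with the last spot only (0.46, adjusted p = 0.244) and with the genes of widest spot spread left out (0.52, adjusted p = 0.0911), and it kept its call in 4 of 11 alternatives centred on genes. CYB5 (YNL111C), a cytochrome that donates electrons to sterol oxidation, lay at 0.70, −0.48 and 0.45. ARE1 (YCR048W), an acyltransferase gene for storing sterols as esters, lay at −0.34, 0.68 and −0.43, and ARE2 (YNR019W), its paralog with most of the activity in aerobic cells, at 0.04, 0.60 and 0.34. None of these last 3 genes passed (limma adjusted p = 0.313 to 0.946).

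Of the regulator genes, UPC2 passed and its paralog ECM22 did not. UPC2 (YDR213W), for the activator that takes up its role when sterols run low, lay at −1.11, −0.63 and −0.83 (mean −0.86 ± 0.24 SD, n = 3; limma adjusted p = 0.013). Its spots agreed closely, at −1.18 and −1.05, −0.65 and −0.61, and −0.93 and −0.74. The SD between them was 0.086, narrower than for any other of the 31 genes. UPC2 did not pass when replicate 1 (−0.73, adjusted p = 0.0524) or replicate 3 was left out (−0.87, adjusted p = 0.114). ECM22 (YLR228C) lay at −0.60, 0.25 and 0.29, on both sides of the median. UPC2 minus ECM22 was −0.51, −0.88 and −1.13, below 0 on every array (mean −0.84 ± 0.31 SD, n = 3). An exact sign permutation gave a two-sided p of 0.25 for this difference, the smallest that 3 arrays allow, so this test could not pass 0.05. The print block that holds UPC2 had a median of −0.12, −0.46 and −0.14, while that of ECM22 had one of 0.43, 0.34 and 0.10. With block medians removed, UPC2 had a mean of −0.59 and no longer passed (limma adjusted p = 0.071). ECM22 then had a mean of −0.28 (limma adjusted p = 0.431). The part of print position in the difference between UPC2 and ECM22 was not tested.

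**Figure D2:**
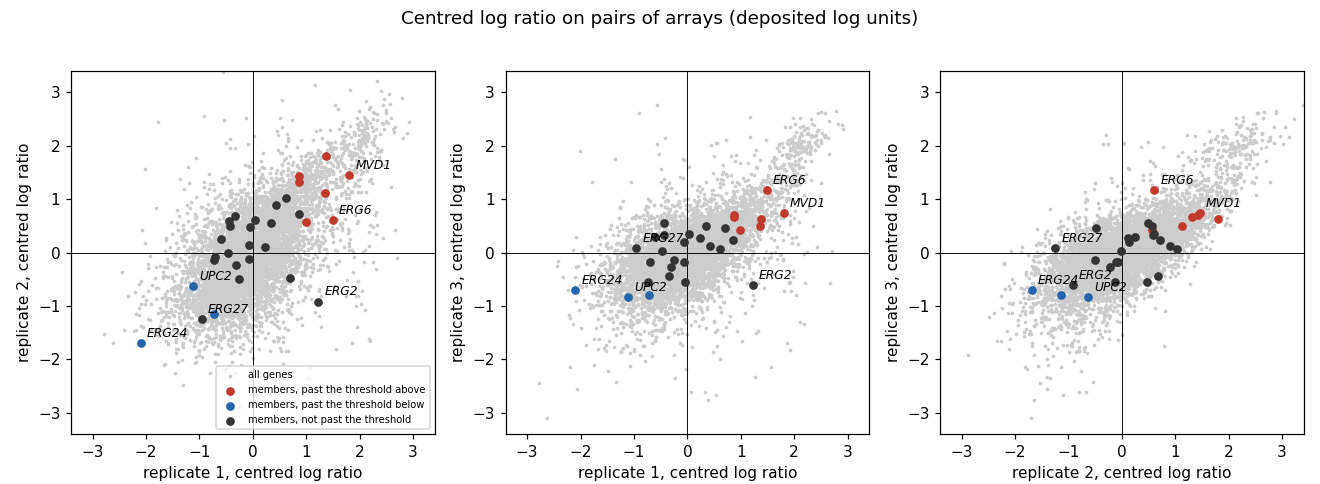
Centred log ratio (deposited log units) of each gene on a pair of arrays, with all genes in grey and the 31 genes in red, blue or black by their call. MVD1 and ERG6 lie toward the upper right and ERG24 and UPC2 toward the lower left, while ERG2 lies to the right of 0 on replicate 1 and below 0 on replicates 2 and 3.

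The arrays ranked the 31 genes in broadly similar order. Across these genes the Pearson correlation was 0.70 between replicates 1 and 2, 0.67 between 1 and 3, and 0.69 between 2 and 3, where all genes gave 0.63, 0.62 and 0.74. These are correlations across genes, which share arrays and are not independent replicates. Leaving out ERG2 gave 0.80, 0.77 and 0.67 over the remaining genes, and leaving out ERG24 instead gave 0.62, 0.63 and 0.65. A range over the arrays of more than 1 unit was seen in 9 of the 31 genes (29.0%), beside 23.5% of all genes.

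The spread between a gene's spots moved with its ratio over the whole array. Over 10 equal groups of all genes ordered by this spread, the median ratio was 0.60 in the narrowest group and −0.52 in the widest. The 7 genes that passed above the median had spreads between 0.11 (ERG1) and 0.32 (ERG28), with a median of 0.17, while the 21 genes that did not pass had a median of 0.35, and all genes one of 0.27. Of the genes below, ERG24 had a wide spread of 0.81 and UPC2 a narrow one of 0.086. With the trend removed, ERG13 (0.93), MVD1 (1.29), ERG28 (0.99) and ERG6 (0.79) still passed above, and ERG24 (−0.92), ERG4 (−0.72) and UPC2 (−1.44) below. ERG10 (0.63, adjusted p = 0.066), ERG1 (0.47, adjusted p = 0.158) and NCP1 (0.48, adjusted p = 0.144) did not, and ERG11 did (0.75, adjusted p = 0.0323). Brightness of the spots was not analysed here.

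**Figure D3:**
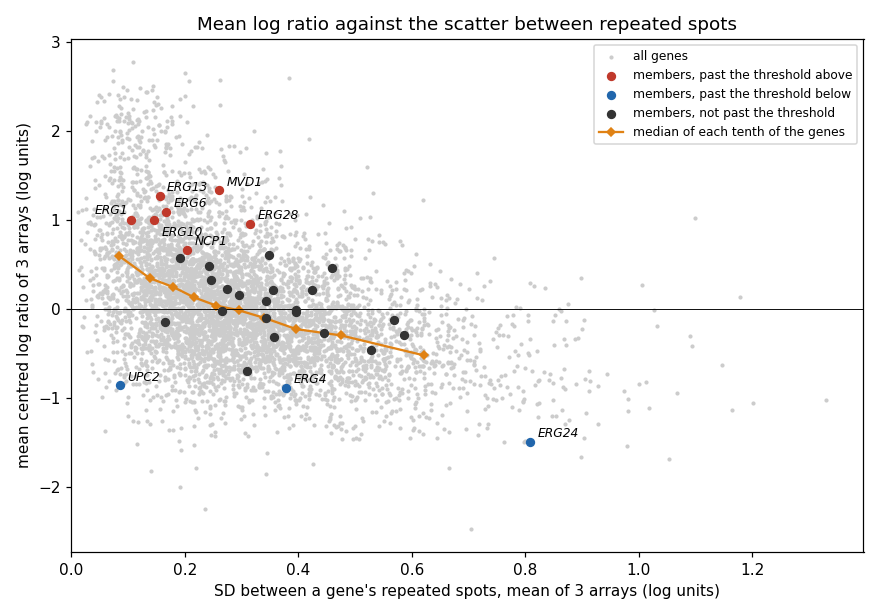
Mean centred log ratio of the 3 arrays (y axis, log units) against the SD between a gene's repeated spots (x axis, log units), with all genes in grey, the 31 genes in colour and the medians of 10 groups of genes in orange. The medians run from 0.60 down to −0.52, the genes that passed above lie at spreads of 0.11 to 0.32, and UPC2 lies well below the medians at a narrow spread.

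The values below the median were also set beside 288 pairs of spots at 6 block positions that carry no gene symbol anywhere on the array. Their median lay 0.79 below the array median over the 3 arrays. Against these pairs UPC2 stood at −0.07 and ERG4 at −0.10 (limma adjusted p = 0.852 and 0.781), while ERG24 stood at −0.70 and was the only one of the 31 genes to pass below them. Positions differed: 4 had medians as deposited near −3.0 on replicate 1, and the other two had −1.70 and −1.86.

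The calls of ERG13, MVD1 and ERG24 held when any 1 array was left out. Without replicate 3, only ERG13 (1.59) and MVD1 (1.63) passed above and only ERG24 (−1.89) below, with 275 and 48 of all genes called. Without replicate 2, 4 passed above (ERG13, MVD1, ERG1 and ERG6) and 2 below (ERG24 and UPC2). Without replicate 1, NCP1 and UPC2 no longer passed. ERG13, MVD1 and ERG24 passed on the same side in every alternative run that centred arrays on their genes. There were 11 of these for ERG13 and for MVD1, and 10 for ERG24, which a filter on spot spread left out.

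**Figure D4:**
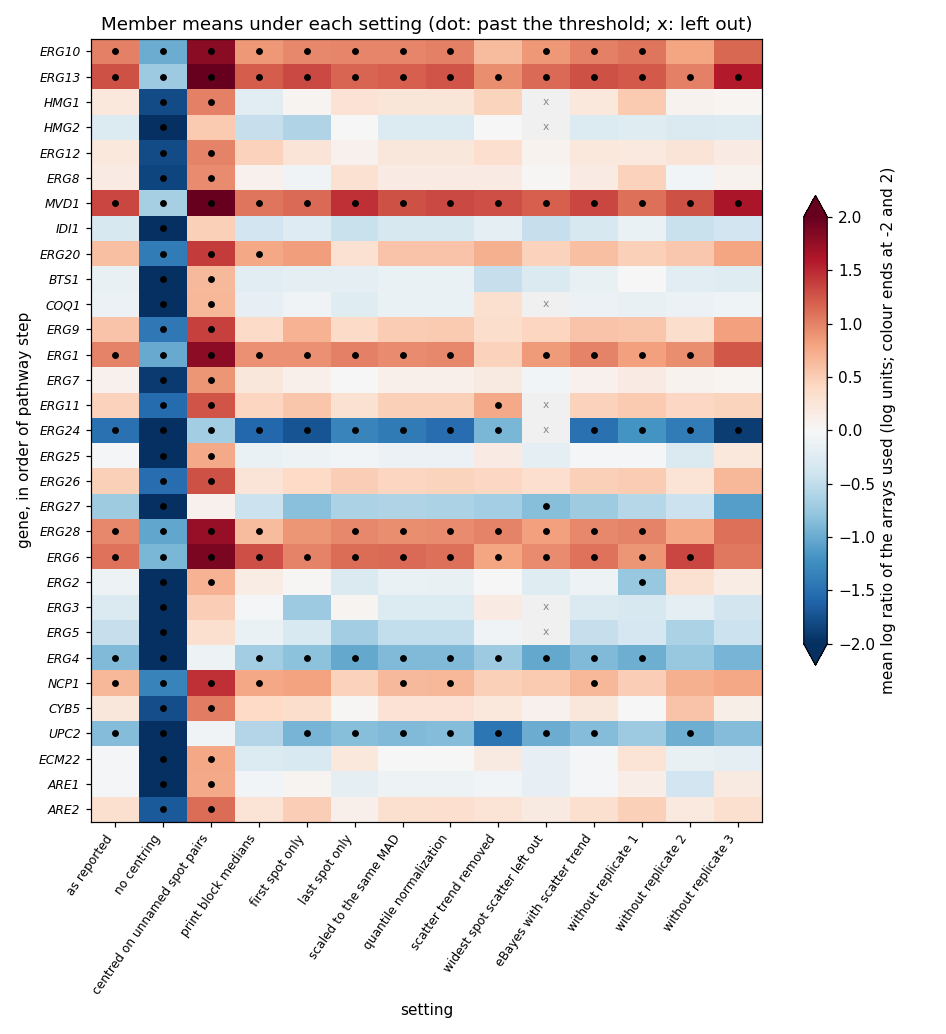
Mean log ratio (colour, log units, ending at −2 and 2) of the 31 genes (y axis, in pathway order) under each setting (x axis), with a dot where the adjusted p was under 0.05 and a cross where a filter left the gene out. With no centring all 31 genes lie below 0, against the unnamed spot pairs most lie above 0, and ERG13, MVD1 and ERG24 keep their dots in the other columns that hold them.

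Genes next to the pathway were counted on the same scale. Of 31 genes of sterol control and transport, 6 passed below and 1 above the median (19.4 and 3.23%, beside 12.5 and 16.0% of all genes), with a median of −0.13. The lowest were PDR11 (−1.32 ± 0.53) and AUS1 (−1.19 ± 0.46), for transporters that import sterol in cells without oxygen (SD, n = 3 each; limma adjusted p = 0.00147 and 0.00253). YEH1, a steryl ester hydrolase gene, lay at −1.11 ± 0.69, and NCR1, for a sterol transporter of the vacuole membrane, at −1.11 ± 0.27 (SD, n = 3 each; limma adjusted p = 0.007 and 0.00289). The rest of these calls, named after their values were seen, were DAN1 (−0.93), a cell wall protein gene of cells without oxygen, SPF1 (−0.75), and, above the median, KES1 (0.98), an oxysterol-binding protein gene. All 6 genes that passed below had wide spreads between spots, against a median of 0.27 over all genes. The spreads were 0.65 for AUS1, 0.45 for PDR11, 0.42 for YEH1, 0.46 for NCR1, 0.51 for DAN1 and 0.43 for SPF1. KES1 had a narrow one of 0.072. AUS1 and PDR11 stood at −0.40 and −0.53 against the unnamed pairs. The part of spot quality in the values of these genes was not tested.

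Another list held 24 genes that use farnesyl or related diphosphates for prenylation, dolichol, ubiquinone, haem a or transfer RNA. Their median was −0.12, and 1 passed above (4.17%, beside 16.0% of all genes) and 1 below (4.17%, beside 12.5%). These calls were COQ4 (0.67 ± 0.35; limma adjusted p = 0.0482), for a ubiquinone synthesis protein, and SEC59 (−0.86 ± 0.16; limma adjusted p = 0.0118), for dolichol kinase (SD, n = 3 each). The SD between the spots of SEC59 was 0.93 on average, wider than in 99.6% of the genes. Against the unnamed pairs SEC59 stood at −0.07. Of 8 haem synthesis genes, whose product the P450 enzymes of the pathway carry, 1 passed: HEM14, for protoporphyrinogen oxidase, at 0.81, 0.95 and 0.97 (mean 0.91 ± 0.08 SD, n = 3; limma adjusted p = 0.00831). HEM14 lay above on every array with a narrow range. This 1 call is 12.5% of the haem genes, beside 16.0% of all genes that passed above. No haem gene passed below, where 12.5% of all genes did.

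**Figure D5:**
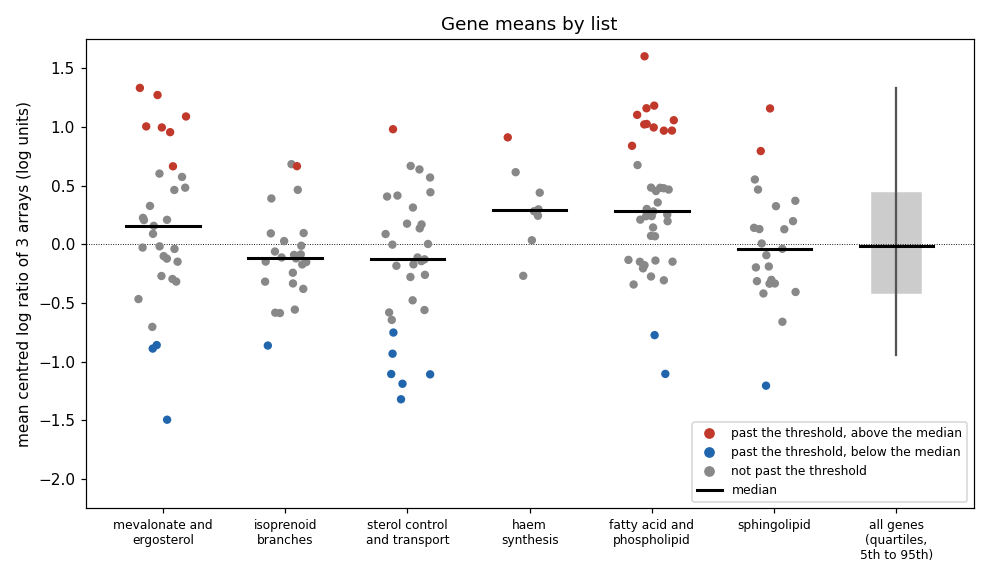
Mean centred log ratio of the 3 arrays (y axis, log units) for each gene of 6 lists and for all genes (box: quartiles, line: 5th to 95th percentile), with red and blue for means past the threshold and a bar at each median. The mevalonate and ergosterol genes reach from −1.50 to 1.33 around a median of 0.16, and the sterol control and transport genes hold 6 calls below the array median.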

How the data were processed

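The authors deposited 1 log ratio per spot and array, taken here as log2 (the range is too wide for log10, and natural log cannot be told apart, so no fold change is given). Scanner software, background correction and normalization are not given in the sources used here. Of 13056 spots, 11138 had 1 gene symbol in the platform annotation, 0 had several and 1918 had none. Spots of a gene were averaged, and the median over 5539 genes was subtracted on every array. With limma 3.58.1 in R 4.3.3 (lmFit, eBayes), a two-sided test set each gene's mean over 3 arrays against 0, at 0.05 after Benjamini-Hochberg adjustment over all genes. The fit was tested on simulated data, where it called 14.9% of genes shifted by 0.5 and 82.1% of those shifted by 1. A gene that did not pass may therefore still differ from the median. The 31 genes and the 5 other lists were chosen with earlier results of these data known, and no set test was run. All 31 genes are named, with the genes next to YAP1 and up to 4 called genes of each other list with the largest absolute mean (2 where none was called). Older names in lists were matched through RefSeq synonyms. Alternatives changed centring, spot averaging, scaling, the trend with spot spread, a filter, the variance prior and the arrays used. The number of arrays limits the precision. Sequences were not used here.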

Additional observations from a re-analysis of the deposited data

How the results depend on the processing

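The zero of the scale decided most sides. With values as deposited, 0 of the 31 genes passed above 0 and 31 below, with a median of −1.84 (2 and 5258 of all genes), and these means turned below 0: ERG10 −0.996, ERG13 −0.73, HMG1 −1.79, ERG12 −1.79, ERG8 −1.84, MVD1 −0.67, ERG20 −1.40, ERG9 −1.43, ERG1 −1.005, ERG7 −1.91, ERG11 −1.54, ERG26 −1.52, ERG28 −1.04, ERG6 −0.91, NCP1 −1.34, CYB5 −1.77 and ARE2 −1.67. Against the unnamed spot pairs, 23 passed above 0 and 1 below, with a median of 0.95 (3284 and 27 of all genes), and BTS1 (0.65), COQ1 (0.67), ERG25 (0.75), ERG2 (0.69), ECM22 (0.78) and ARE1 (0.77) turned above 0 and passed. Leaving out 1 array each gave 2 to 6 genes above and 1 to 3 below among the 31, medians of 0.07 to 0.19, and 275 to 826 genes above and 48 to 617 below in all; the lowest counts were those without replicate 3. By the first spot alone, 413 of all genes passed below the median. Scaling to 1 spread, quantile normalization and a variance prior that follows spot spread kept all calls among the 31 genes. Both strains share each array, so each log ratio is already a paired difference, and the test of its mean against 0 uses this pairing. The labels hold only 1 group, so no other comparison was possible. Signal over background is not known.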

Other observations

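Genes of fatty acid and phospholipid synthesis, the other large lipid routes, passed above the array median more often than below it. Of 39 genes measured, 11 passed above and 2 below (28.2 and 5.13%, beside 16.0 and 12.5% of all genes), with a median of 0.28. FAS1, for a subunit of fatty acid synthase, lay at 1.29, 1.60 and 1.91, while FAS2, for its other subunit, named after its value was seen, had a mean of −0.18 and did not pass. INO1, for inositol phosphate synthase, lay at 1.35, 1.44 and 0.76, and FAA1, an acyl-CoA synthetase gene, at 1.66, 1.08 and 0.74. INO1 and FAA1 had narrow spreads between spots, of 0.080 and 0.074, where all genes ran high, while FAS1 had a wide one of 0.37. The median spread of the list was 0.26, against 0.27 over all genes. The part of this trend in the calls of the list was not tested. DGA1, for the acyltransferase that makes storage fat, lay at −1.42, −0.67 and −1.23. Of 23 sphingolipid genes, 2 passed above and 1 below (8.7 and 4.35%, beside 16.0 and 12.5% of all genes), with a median of −0.04. They were TSC10 (1.16 ± 0.33), for a reductase of sphingoid base synthesis, ORM2 (0.79 ± 0.16), for an inhibitor of the first step, and LCB1 (−1.21 ± 0.96), for a subunit of the enzyme of that step (SD, n = 3 each). LCB1 lay at −0.34 on replicate 1 and −2.24 on replicate 2, with a spread between its spots of 0.85.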
